A study of Mus musculus with 12 samples.

Results

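The transcription factors described here were grouped as factors of the corneal endothelium and the periocular mesenchyme from which it forms. They were taken by gene symbol from a list of 9 genes: *Foxc1*, *Foxc2*, *Tfap2a*, *Tfap2b*, *Lmx1b*, *Zeb1*, *Tcf4*, *Tbx2* and *Tbx4*. Of the 9 genes, 8 had a row among the 15838 genes of the authors' tables, and *Foxc2* had none. The RNAseq libraries came from corneal endothelial cells (CEC) peeled with their Descemet membrane from *Slc4a11*-/- (KO) and *Slc4a11*+/+ (WT) mice at 10 weeks of age. There were 12 libraries, 3 from each sex of each genotype, and *Slc4a11*, the gene lost in KO, is the one mutated in congenital hereditary endothelial dystrophy. The paper describes the membranes of both corneas processed as pairs, whereas the sample records speak of pooled membranes, so whether a library is 1 mouse is not settled. The values used are the authors' mean over all 12 libraries, in log2 CPM, the binary logarithm of the read count scaled to a common library size, 1 value per gene. This mean combines both genotypes and both sexes, so it describes the tissue as sequenced and shows no difference between KO and WT or between males and females. No value per library and no depth of any library is known here, hence no level below carries an error and no difference between genes was tested.

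The corneal endothelium is a single layer of cells on the inner face of the cornea that pumps fluid out of the stroma. It forms from periocular mesenchyme, a cell population that comes largely from the neural crest and also gives rise to the stromal keratocytes, the trabecular meshwork and the iris stroma. Its development depends on forkhead, AP-2, LIM-homeodomain and paired-homeodomain factors, and several of them cause anterior segment dysgenesis or glaucoma when mutated. Other members are tied to dystrophies of the adult endothelium: *TCF4* carries the intronic repeat expansion common in Fuchs dystrophy, and loss of 1 copy of *ZEB1* causes a form of posterior polymorphous dystrophy.

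The libraries carried the defining transcripts of the labelled tissue. All 10 listed corneal endothelium markers had a row, at 9.15 to 12.79 log2 CPM, and all 10 were in the highest 10% of genes. *Col8a2*, a collagen of the Descemet membrane, had 12.79 log2 CPM, the water channel *Aqp1* had 12.37, and *Atp1b1*, a sodium pump subunit, had 11.34. *Slc4a11* itself had 10.71 log2 CPM, a mean over KO and WT libraries that cannot check their labels. Markers of the stroma were also abundant, with 7 of 7 present at 5.31 to 12.07 log2 CPM and *Col1a2*, *Col1a1* and *Dcn* at the top. Of 8 markers of corneal epithelium 7 had a row, at 1.90 to 10.06 log2 CPM. In a bulk sample a level cannot be divided between cell types, and fewer cells of a type and less RNA per cell cannot be told apart. The part of stromal and epithelial cells in the levels below was not tested.

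Most of the members were among the abundant transcripts of this tissue, and a pair of them were scarce. The median level of all 15838 genes was 3.76 log2 CPM, and 6 of the 8 members lay above it, each of these 6 within the highest 10% of genes. *Zeb1*, the lowest of the 6, was just short of that when set against genes of at least 1 CPM (higher than 89.7%) or protein-coding genes (88.7%). *Tfap2b* had 9.85 log2 CPM, or 922 CPM, and ranked 96 from the top. *Tcf4* had 9.38 log2 CPM (rank 144) and *Lmx1b* had 9.15 log2 CPM (rank 166). Further down, but still above 90.7% of genes or more, were *Tbx2* with 7.48 log2 CPM, *Foxc1* with 7.40 and *Zeb1* with 6.81. *Tbx4* had 2.01 log2 CPM and was higher than 30.6% of genes. *Tfap2a* had -0.68 log2 CPM, or 0.626 CPM, and was higher than 1.85% of genes. These shares are among the genes the tables hold, and *Tfap2a* sits near their lower edge.

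**Figure D1:**
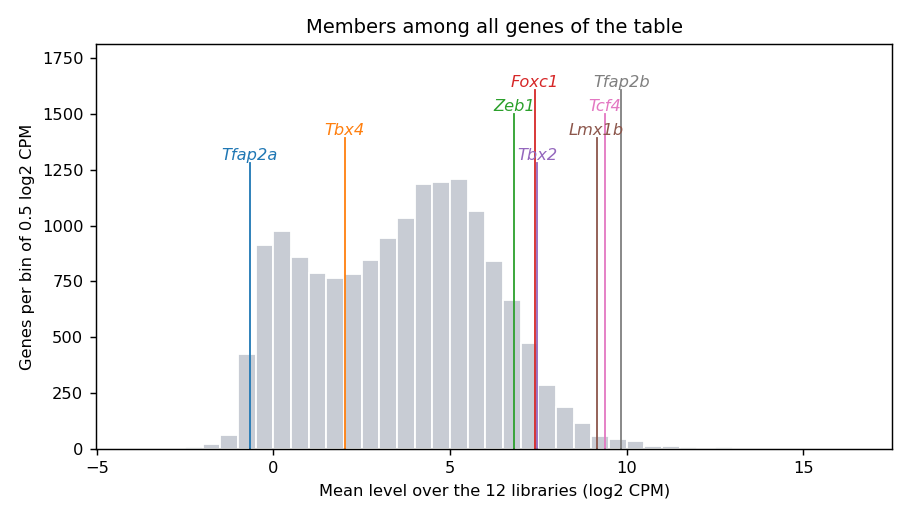
Histogram of the authors' mean level of all 15838 genes (x axis, log2 CPM over the 12 libraries; y axis, genes per bin of 0.5), with a vertical line at each of the 8 members that had a row. The lines of *Zeb1*, *Foxc1*, *Tbx2*, *Lmx1b*, *Tcf4* and *Tfap2b* stand in the upper tail from 6.81 to 9.85, while those of *Tbx4* and *Tfap2a* stand at 2.01 and -0.68.

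Long transcripts collect more reads, so levels of different genes were compared per kb of exonic sequence, taken from GENCODE M21 on GRCm38. The median of all genes on this scale was 1.79 log2 CPM per kb. The order of the members was *Tfap2b* (7.18 log2 CPM per kb), *Lmx1b* (6.86), *Tbx2* (5.62), *Foxc1* (4.85), *Tcf4* (4.60), *Zeb1* (3.45), *Tbx4* (0.25) and *Tfap2a* (-2.97). Without a spread over libraries it cannot be said which neighbours in this order differ. *Tcf4* moved most with length, because its annotated exons together cover 27382 bases whereas its longest coding transcript has 8577 bases in 20 exons. With the longest coding transcript as its length *Tcf4* had 6.28 log2 CPM per kb and stood above *Tbx2* and *Foxc1*. *Zeb1* rose in the same way from 3.45 to 4.27 log2 CPM per kb, and its place among the members did not change. By exonic bases 5 members were in the highest 10% of genes per kb, and by the longest transcript 4 were. *Zeb1* was outside it under either length, higher than 78.6% of genes per kb by exonic bases and 82.9% by the longest transcript.

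**Figure D2:**
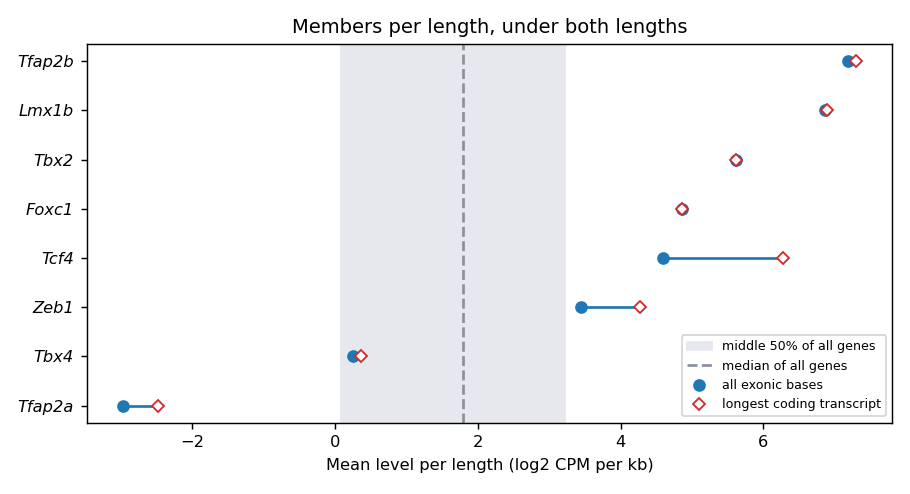
Mean level per length of the 8 members (x axis, log2 CPM per kb) with all exonic bases (filled circles) or the longest coding transcript (open diamonds) as length, joined by a line. The shaded band is the middle 50% of all genes and the dashed line their median at 1.79. The symbols of *Tcf4* are farthest apart, at 4.60 and 6.28, and *Tfap2a* lies below the band under either length.

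The AP-2 factors bind GC-rich sites as dimers and act in neural crest and in surface ectoderm. *Tfap2b* (ENSMUSG00000025927, AP-2β) lies on the plus strand of chromosome 1 from 19208914 to 19238576, and is required in the neural crest for the anterior segment, including the corneal endothelium. *Tfap2a* (ENSMUSG00000021359, AP-2α), on the minus strand of chromosome 13 between 40715302 and 40738376, acts in lens and facial development. Their mean levels of 7.18 and -2.97 log2 CPM per kb differed by 10.15, a 1139-fold ratio of levels per kb. Against the longest transcripts the ratio was 876-fold. At so low a level the value depends on the offset that voom adds to the counts and on averaging logarithms over libraries, so the size of the ratio is uncertain. The other genes of the family, *Tfap2c*, *Tfap2d* and *Tfap2e*, had no row. *Tfap2a* is also an epithelial gene, and the listed keratins of corneal epithelium had 2.18 to 5.12 log2 CPM in these libraries, with *Krt5* the highest and *Krt14* the lowest of them. Annotated antisense genes overlap exons of *Tfap2a* (*Gm47061*, *Gm26688* and *Gm47067*), and none of these had a row. Whether the counting used strand is not given in the sources used here.

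*Foxc1* (ENSMUSG00000050295) and *Foxc2* (ENSMUSG00000046714) encode closely related forkhead factors that act together in the periocular mesenchyme, and mutation of human *FOXC1* causes Axenfeld-Rieger anomalies and glaucoma. *Foxc1* is a gene of 1 exon on the plus strand of chromosome 13 from 31806633 to 31812476, and had 169 CPM, or 28.9 CPM per kb. *Foxc2*, also of 1 exon, lies on the plus strand of chromosome 8 from 121116171 to 121118895. No level can be given for *Foxc2*, which was looked up by symbol and by gene ID. An annotated gene of wide span, *Gm20388*, overlaps *Foxc2* outside its exon and had no row. The other genes within 10000 bases were *Mthfsd*, at 4.30 log2 CPM, and *Foxl1*, another forkhead gene with no row.

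**Figure D3:**
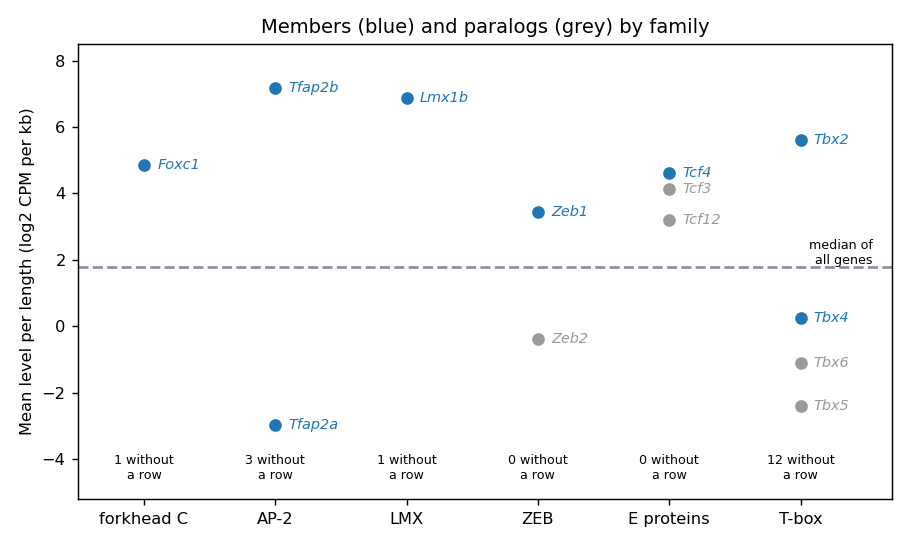
Mean level per length (y axis, log2 CPM per kb, all exonic bases) of the members (blue) and the other listed genes of the same 6 families (grey), with the number of listed genes without a row under each family. *Tfap2b* at 7.18 and *Tfap2a* at -2.97 are the widest pair, and the E proteins lie closest together, from 3.21 to 4.60.

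*Lmx1b* (ENSMUSG00000038765) encodes a LIM-homeodomain factor needed in the periocular mesenchyme, and mutation of the human gene causes nail-patella syndrome, often with glaucoma. It occupies chromosome 2 from 33560965 to 33640511, on the minus strand, and had 568 CPM, or 116 CPM per kb. Its paralog *Lmx1a*, known from the midbrain and inner ear, had no row. Beyond the 5′ end of *Lmx1b*, 681 bases away and on the other strand, starts *C130021I20Rik* (ENSMUSG00000052951), which the annotation gives as a long non-coding antisense gene (chromosome 2, plus strand, 33641193 to 33646354). It was singled out after its value was seen. *C130021I20Rik* had 8.31 log2 CPM, which ranked 2 among the 1278 genes given as lncRNA in the tables. Per kb it had 76.5 CPM and ranked 6 among them, and the level of *Lmx1b* per kb was 1.52 times as high. Exons of both genes do not overlap in the annotation. RefSeq places the start of *Lmx1b* at 33641098, which is 587 bases upstream of the GENCODE start and 95 bases from the start of *C130021I20Rik*. The RefSeq window around that start (GRCm38.p6, minus strand, chr2:33641049-33641348, 250 bases before to 50 after) therefore holds the starts of both genes. It is shown because both transcripts are abundant, and capitals mark the 96 bases from one start to the other.
Lmx1b and C130021I20Rik: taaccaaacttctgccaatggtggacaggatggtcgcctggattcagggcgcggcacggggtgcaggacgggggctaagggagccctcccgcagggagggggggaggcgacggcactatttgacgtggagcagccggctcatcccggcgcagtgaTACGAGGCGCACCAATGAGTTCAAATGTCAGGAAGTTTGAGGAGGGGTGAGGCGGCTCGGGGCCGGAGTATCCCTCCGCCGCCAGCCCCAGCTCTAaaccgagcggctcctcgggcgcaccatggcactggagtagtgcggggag

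This stretch had 65.7% G and C, more than 83.0% of the 32851 RefSeq windows, and 24 CpG dinucleotides against a median of 7 in all windows. Windows were found for 5 of the 9 members. That of *Foxc1* (plus strand, chr13:31806396-31806695) had 67.3% G and C and 32 CpG. Among the 6 windows of the 5 members it was the 1 with a match to the AP-2 palindrome GCCNNNGGC, searched on both strands, which 16.6% of all windows hold. It is shown since *Tfap2b* is the most abundant member, with the match at base 115 in capitals.
Foxc1: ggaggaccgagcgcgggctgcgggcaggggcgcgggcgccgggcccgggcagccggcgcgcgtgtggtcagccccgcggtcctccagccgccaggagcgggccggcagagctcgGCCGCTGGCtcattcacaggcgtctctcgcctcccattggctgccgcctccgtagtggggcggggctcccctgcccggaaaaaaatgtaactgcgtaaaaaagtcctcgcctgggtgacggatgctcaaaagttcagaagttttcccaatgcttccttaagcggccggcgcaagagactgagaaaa

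No window of a member held CAGGTG, the E-box that ZEB1 binds, on either strand, and 20.2% of all windows did. The window of *Tfap2b* had 48.3% G and C and 8 CpG. For *Tfap2a* RefSeq gives 2 windows, with 46.3% and 61.0% G and C and 11 and 15 CpG. These windows start from RefSeq sites that lie 3140 bases (*Tfap2b*) and 3456 and 4581 bases (*Tfap2a*) from the GENCODE start of the gene. The RefSeq site of the *Tbx4* window is farthest, 10343 bases from the GENCODE start and within the gene. A match or its absence describes these letters alone and says nothing of binding.

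*Tbx2* (ENSMUSG00000000093) and *Tbx4* (ENSMUSG00000000094) encode T-box factors, of which *Tbx2* is mostly a repressor acting in the eye, heart and limb, and *Tbx4* is known for hindlimb and lung. They lie close together on the plus strand of chromosome 11. *Tbx2* runs from 85832551 to 85841948 and *Tbx4* from 85886422 to 85916097, with 44473 bases between them. The annotated gene *Gm11444*, which had no row, lies there within 10000 bases of *Tbx2*. The middle of the interval was not searched for genes. *Tbx2* had 178 CPM and *Tbx4* had 4.04 CPM. Per kb the mean levels were 49.1 and 1.19 CPM, a 41.3-fold ratio within this short interval. On the other side of *Tbx2*, the lncRNA gene *2610027K06Rik* starts 327 bases away and runs in the opposite direction. It had 2.58 log2 CPM, so in contrast to the pair at *Lmx1b* its level per kb, 2.32 CPM, was far under that of its coding neighbour. Of the 16 listed T-box genes 4 had a row, and the remaining *Tbx6* and *Tbx5* had -1.11 and -2.40 log2 CPM per kb. *Tbx2* was 106-fold above *Tbx6* and 258-fold above *Tbx5* per kb. The T-box genes with no row were *Tbx1*, *Tbx3*, *Tbx10*, *Tbx15*, *Tbx18*, *Tbx19*, *Tbx20*, *Tbx21*, *Tbx22*, *Tbxt*, *Eomes* and *Tbr1*.

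*Zeb1* (ENSMUSG00000024238), on the plus strand of chromosome 18 from 5591860 to 5775467, encodes a zinc finger factor that represses epithelial genes at E-boxes. It had 112 CPM, and its paralog *Zeb2* had 15.1 CPM. Per kb their levels were 10.9 and 0.758 CPM, a 14.4-fold ratio with all exonic bases and an 11.7-fold ratio with the longest transcripts. The antisense gene *Gm10125* overlaps exons of *Zeb1* and had 1.33 log2 CPM, so some reads may be shared if strand was not used in counting. Epithelial genes of the ZEB1 axis were scarce. Of 10 listed genes 8 had a row, at -0.99 to 2.02 log2 CPM, and 0 of them lay above the median of all genes. *Esrp2*, an epithelial splicing factor, had 2.02 log2 CPM, *Crb3*, an apical polarity gene, had 2.01, and *Grhl3*, a grainyhead factor, had 0.82. *Ovol2* and *Grhl2*, whose human orthologs cause other forms of posterior polymorphous dystrophy, had no row and -0.99 log2 CPM, respectively. *Cdh1*, the epithelial cadherin, had -0.01 log2 CPM. The mesenchymal genes of the axis were high, with 4 of 5 present at 5.39 to 11.70 log2 CPM. *Fn1* (fibronectin) had 284 CPM per kb, *Vim* (vimentin) 74.7 and *Cdh2* (N-cadherin) 70.3. *Cdh2* is among the corneal endothelium markers as well, and the stroma is known to express *Fn1* and *Vim*.

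*Tcf4* (ENSMUSG00000053477), on the plus strand of chromosome 18 from 69343356 to 69689079, encodes a basic helix-loop-helix E protein, and such proteins pair with tissue-specific partners at E-boxes. The other E proteins, *Tcf3* and *Tcf12*, were both present, with 6.16 and 7.16 log2 CPM beside 9.38 for *Tcf4*. With all exonic bases the levels were 24.3 CPM per kb for *Tcf4*, 17.7 for *Tcf3* and 9.22 for *Tcf12*. *Tcf4* was 1.37-fold above *Tcf3* on that scale, and 3.20-fold above it with the longest transcripts. *Tcf4* was first of the 3 E proteins on every scale used, by a margin that depends on the length chosen.

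Other factors of the anterior segment and neural crest were listed beside the members. Of 32 listed genes 22 had a row and 10 lay above the median of all genes. The median of the 22 was 2.28 log2 CPM, beside 7.44 for the 8 members. Per kb these medians were 0.65 and 4.73 log2 CPM per kb. Both lists were chosen with earlier results of these data known, and the difference was not tested. *Prrx1* (8.94 log2 CPM), a paired-related factor of mesenchyme, had 44.5 CPM per kb, and *Twist1*, a basic helix-loop-helix partner of E proteins, had 44.3. *Maf*, a basic leucine zipper factor, had 7.81 log2 CPM. *Sox10*, kept on in glia and melanocytes, had 0.09 log2 CPM. Genes of the list with no row included *Pitx3*, *Foxe3*, *Foxd1*, *Foxd3*, *Pax3*, *Msx2*, *Alx1* and *Six2*.

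**Figure D4:**
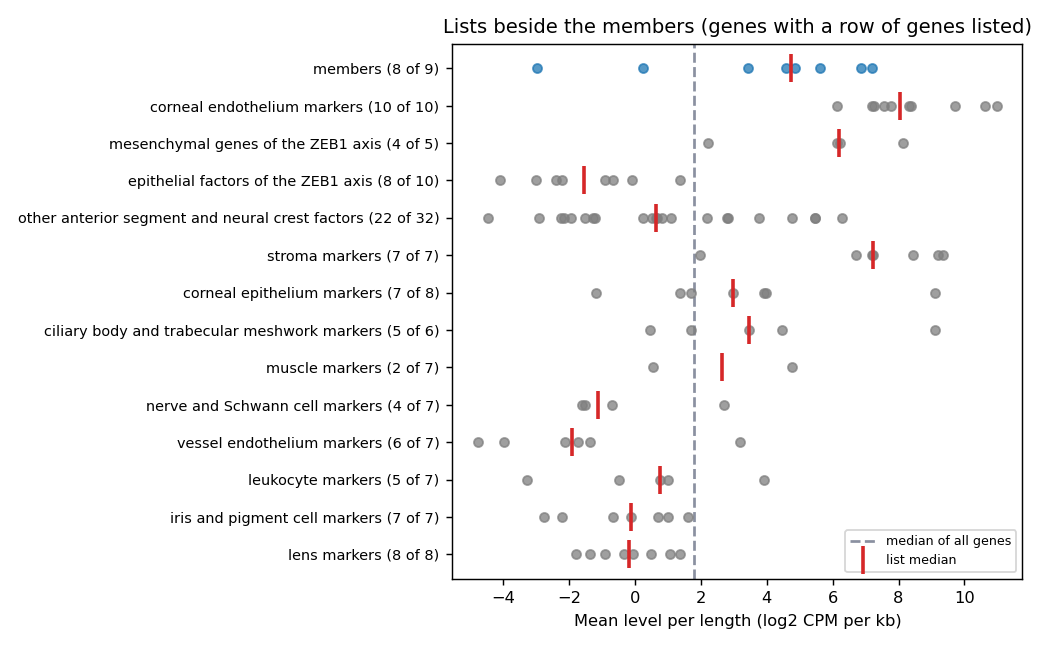
Mean level per length (x axis, log2 CPM per kb, all exonic bases) of each gene with a row, for the members (blue) and the lists beside them (grey), with the median of each list (red bar) and that of all genes (dashed line, 1.79). Numbers in brackets are genes with a row of genes listed. Corneal endothelium markers lie from 6.14 to 10.97, and the epithelial genes of the ZEB1 axis from -4.09 to 1.36.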

How the data were processed

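Per the labels and the paper's methods, the authors extracted RNA with the RNeasy Plus Micro Kit, prepared stranded total RNA libraries with the SMARTer Pico Input kit, sequenced paired-end reads on a NovaSeq and aligned them with HISAT2 to GRCm38 (mm10). They scaled read counts to CPM by TMM and modelled them with voom and limma. The counter, the annotation release and tool versions are not given in the sources used here. The methods name CPM above 1 among the thresholds for differential expression, and whether genes were filtered on it before deposit is not stated. The tables hold 14407 genes with a mean of at least 1 CPM and others below it. The authors deposited 3 tables of 15838 genes each, for genotype, sex and their interaction. The column used is their mean level over the 12 libraries, on the log2 scale (log2 CPM), which was equal in the 3 tables (largest difference 0.0). The other columns hold the authors' own comparisons (log2 fold change, moderated t, p-value, adjusted p-value and log odds) and were not used, hence no comparison of genotype or sex is made. A CPM is 2 to the power of that mean. Total read counts per library, and so the depth and the precision it gives, are unknown.

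Exonic length (the union of all annotated exons) and positions were read from the GENCODE M21 annotation of GRCm38, in which 15824 of the 15838 genes were found. Members and lists were matched by symbol and gene ID (*Tbxt* as *T*), and ranks were taken over all genes. RefSeq promoter windows of 300 bases (GRCm38.p6) were searched for motifs on both strands. Named genes are the members, their listed family, the 3 highest genes of each other list and *Slc4a11*, some of which are not reported here. Genes named for their position or as absent, and others within a list, were chosen after their values were seen. The members and lists were chosen with earlier results of these data known. Alternatives were the table read, the genes ranked against and the length. Python 3.11.15, pandas 2.3.3, numpy 2.4.6 and matplotlib 3.10.9 were used, and length, rank and annotation steps were tested on simulated data.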

Additional observations from a re-analysis of the deposited data

How the results depend on the processing

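The count of 6 members above the median of all genes was the same from each of the 3 tables, among the 14407 genes with a mean of at least 1 CPM, among the 12994 protein-coding genes, and per kb under either length. *Zeb1* left the highest 10% among genes of at least 1 CPM (89.7%) and among protein-coding genes (88.7%). Per kb *Zeb1* was further from it, higher than 78.6% of genes by exonic bases and 82.9% by the longest transcript. The full order within families, per kb, held in 4 of 4 families with the longest transcript as length and in 2 of 4 with no length, where *Tcf12* stood above *Tcf3* and *Tbx5* above *Tbx6*, while the member at the head of each family stayed the same. Of the other anterior segment factors, 8 lay above the median of genes with at least 1 CPM, against 10 above that of all genes. Among protein-coding genes *Tbx4* was higher than 19.0% and *Tfap2a* higher than 1.18% of genes. *Tfap2a* has no rank among genes of at least 1 CPM, since its mean is lower. Leaving out a library was not possible, because the tables used give 1 mean over all libraries, and no paired analysis was possible because no result comes from a test and there is no value per library. The same limit means that neither the spread between mice nor the depth behind a low value such as that of *Tfap2a* can be stated.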

Other observations

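Markers of further cell types of the anterior eye varied widely within their lists. For the ciliary body and trabecular meshwork, 5 of 6 genes had a row, at 0.66 to 10.22 log2 CPM. Of these, 3 lay above the median of all genes. *Angptl7*, a secreted angiopoietin-like protein, had 553 CPM per kb beside 22.3 for *Chil1* and 11.0 for *Ptgds*. *Myoc* and *Wfdc2* were below the median of all genes, with 2.76 and 0.66 log2 CPM. *Aldh3a1*, an abundant enzyme of the cornea, had 548 CPM per kb, whereas *Krt5* and *Krt15* of the same epithelial list had 15.8 and 15.2, and 4 of the 7 genes of that list with a row lay above the median. Of the vessel endothelium list 6 of 7 genes had a row, and the receptor *Kdr* had 6.36 log2 CPM, while *Pecam1* and *Cdh5*, which define that cell type, had 0.92 and 0.71. Of 7 muscle genes 2 had a row, *Myh11* with 206 CPM and *Tnnt3* with 2.30 CPM.

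Nerve and Schwann cell genes (4 of 7 with a row) were led by *Mbp* with 5.78 log2 CPM. Leukocyte genes (5 of 7) had 0.94 to 4.30 log2 CPM, with *Lyz2*, *Csf1r* and *Cd68* the highest. Iris and pigment cell genes (7 of 7) had -0.58 to 4.24 log2 CPM, with *Mitf*, *Dct* and *Pmel* the highest, and lens genes (8 of 8) had -2.03 to 2.63, with *Bfsp1*, *Cryba1* and *Crybb2* the highest. The part of these cells in the levels of the members was not tested.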
